A study of Mus musculus with 11 samples.

Results

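The liver response to a high-fat diet was followed in wild-type mice by comparing 4 mice on a high-fat diet with 3 on a normal diet, 7 of the 11 arrays of the study, and was described across 7924 genes. The arrays were assigned to the diets by their titles alone, not by any measured value. Every mouse was male, of a mixed genetic background, and had received doxycycline for 3 weeks, a drug used to switch on inducible transgenes. The wild-type mice were labelled as having no muscle hypertrophy, and the numbers of mice in the study design equal the numbers of arrays, 1 mouse for each. The remaining 4 arrays came from Akt1 double transgenic mice with muscle hypertrophy on the high-fat diet and received doxycycline as well; the promoter that drives the transgene is not given in the sources used here. These arrays helped to estimate the spread between mice in the fit. They also entered the mean signals by which probe sets were filtered and chosen. The composition and length of the diet, the age of the mice and the hour and feeding state at sampling are not given in the sources used here.

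The liver turns surplus carbohydrate into fat. Glucose metabolites activate the factor ChREBP, which binds pairs of E-box sequences in the promoters of genes for glycolysis, fructose breakdown and lipogenesis, while insulin acts on lipogenic genes through SREBP1c. Dietary fat delivers ready-made fatty acids, which hepatocytes take up, bind, store as triglyceride, oxidise or export in lipoproteins, and which can activate the nuclear receptor PPARA. Hepatocytes also make the acute phase proteins, whose genes respond to interleukin 6 through STAT3 and to interleukin 1 through NF-kB. The resident macrophages of the liver, the Kupffer cells, are one source of such cytokines.

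Array facts that touch the results are few. The trimmed mean signal was 500.25 to 500.28 on the 11 arrays, and median signals of the 7 wild-type arrays lay between 97.2 and 107.25. Gapdh 3'/5' signal ratios, a measure of RNA integrity, lay between 0.669 and 0.768 in the wild-type arrays. The mean signal of the poly-A spike controls was 525 on normal-diet array 3 and 310.1 to 381 on the other 6. On the first principal component, which held 22.9% of the variance of the 7 arrays, high-fat array 2 stood apart at 31.0. The other 6 arrays lay between -20.1 (normal-diet array 3) and 6.81, with high-fat array 3 (-5.55) among the normal-diet arrays. On the second component, with 21.3% of the variance, normal-diet array 3 stood apart at 26.3, and the others lay between -14.5 and 13.9. For genes with an unadjusted p under 0.05, and for most genes given by their signals, the log2 difference is also given without any array whose omission moved it by over 1.5 times. Differences with an unadjusted p above 0.05 often moved by more than that and are mostly given over all 7 arrays alone. The 26 measured markers of hepatocytes, albumin and transthyretin among them, had summed signals of 455122 to 533553 on the normal diet and 518434 to 571774 on the high-fat diet, and 0 of them were below the dim-signal limit (a signal of 53.0) on all 7 arrays. RNA came from whole liver, so fewer cells of a type and less RNA per cell cannot be told apart in any value below.

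Between the diets, the high-fat livers had lower signal of glucose-responsive and fructose-handling genes and of malic enzyme, and higher signal of serum amyloid A, lipocalin 2, the keratin pair Krt8 and Krt18 and the fatty acid transporter Cd36. None of these single-gene differences passed the threshold. Of 7924 genes, 0 (0%) had a Benjamini-Hochberg adjusted p under 0.05 in limma's moderated test, and the smallest was 0.0705. An unadjusted p under 0.05 was found for 556 genes (7.02%, where 5% is the nominal share), 311 with higher (3.92%) and 245 with lower signal (3.09%). All 4 high-fat arrays lay above, or all below, all 3 normal-diet arrays for 627 genes (7.91%), 363 higher (4.58%) and 264 lower (3.33%). With 3 arrays against 4, some genes separate in this way by chance alone. Over all genes, 4046 (51.1%) had a log2 difference (high-fat minus normal) above 0 and 3878 (48.9%) below 0, with a median of 0.0067. All differences below are therefore measured differences, and their errors measure the spread between mice.

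The arrays could bound most genes. The 95% confidence interval of the log2 difference lay inside 2-fold in both directions for 6668 genes (84.1%), gene by gene, or 53.5% of 12393 genes with dim probe sets kept, and the median half-width was 0.40 log2 units, which is 1.32-fold. A log2 difference beyond 1 in either direction was measured for 115 genes, of which 57 had an unadjusted p under 0.05 (30 higher, 27 lower). The interval lay wholly beyond 1 for 3 genes, Lcn2 and Gstp3 on the higher side and Rgs16 on the lower. Counts in the gene lists below stand against the shares over all genes. These were 51.1% above 0, 3.92% higher and 3.09% lower at an unadjusted p under 0.05, and 84.1% bounded inside 2-fold.

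**Figure D1:**
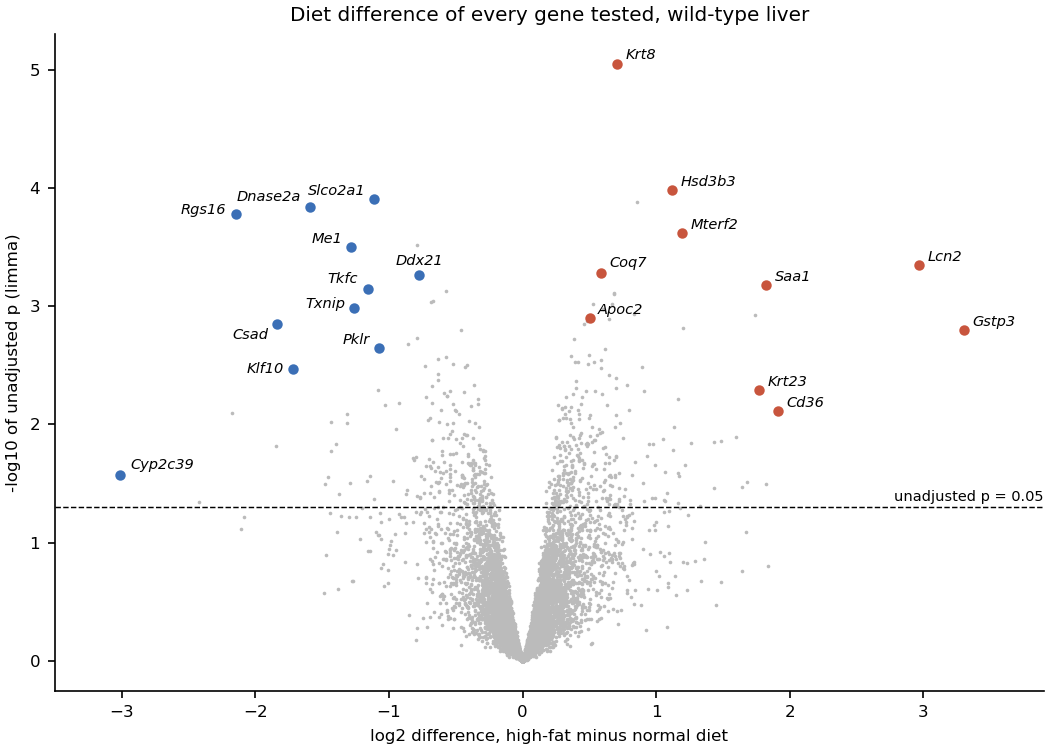
Each point is 1 of 7924 genes; the x axis is the log2 difference of signal, high-fat minus normal diet, in wild-type liver, and the y axis is -log10 of limma's unadjusted p, with the dashed line at 0.05. Named genes are coloured red where higher and blue where lower on the high-fat diet; Krt8 sits highest, Gstp3 (3.30) and Lcn2 (2.97) farthest right and Cyp2c39 (-3.01) farthest left, and 0 genes passed after adjustment.

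Genes that respond to glucose or break down fructose formed the group of largest median difference. All 15 measured members of the 18 listed lay below 0, against 48.9% of all genes, with a median log2 difference of -0.76. For 9 of them the unadjusted p was under 0.05 (3.09% of all genes on this side), and for 6 the groups did not overlap (3.33%). The list was drawn up with earlier results of these data known, Rgs16 and Tkfc among them, so its direction is not independent evidence. Mean log2 levels of the list, relative to the normal-diet mean, were -0.11, -0.21 and 0.32 on the normal diet and -0.65, -1.15, -0.87 and -0.72 on the high-fat diet. Every high-fat array lay below every normal-diet array. Without normal-diet array 3, the highest of its group, the median was -0.57 with 14 of 15 below 0, and without high-fat array 2, the lowest, it was -0.63 with 13 of 15 below 0 and 6 at an unadjusted p under 0.05.

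Promoters of 2 members are shown because Pklr and Txnip are textbook targets of ChREBP, which is known to act on them through paired E-boxes. The 250 bases before the annotated start are from RefSeq, assembly GRCm38.p6, written 5′ to 3′ on the gene's strand, with the 17-base match to CACGNG, any 5 bases and CNNGNG in capitals. The Pklr promoter is chr3:89136373-89136622, plus strand, and its match begins 170 bases before the start. The Txnip promoter is chr3:96557707-96557956, plus strand, and its match begins 85 bases before the start.
Pklr: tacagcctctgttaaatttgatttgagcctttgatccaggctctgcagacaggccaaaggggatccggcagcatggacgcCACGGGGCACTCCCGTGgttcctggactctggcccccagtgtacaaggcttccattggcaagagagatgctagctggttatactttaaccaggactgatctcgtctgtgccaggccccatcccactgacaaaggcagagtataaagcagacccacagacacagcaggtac
Txnip: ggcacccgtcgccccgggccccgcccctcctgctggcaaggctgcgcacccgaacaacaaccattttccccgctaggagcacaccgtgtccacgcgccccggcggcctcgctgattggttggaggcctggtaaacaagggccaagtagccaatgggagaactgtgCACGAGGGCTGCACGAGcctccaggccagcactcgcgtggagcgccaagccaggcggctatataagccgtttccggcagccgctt
The letters of that pattern were settled after these promoters had been looked at, so the match is a description of them. Searched on both strands, the pattern was found in 1.18% of 27025 genes with a promoter (1.00% of 32851 windows) and in 2 of the 12 measured list members with one. A single E-box, CACGTG, which may also form the first part of the longer pattern, was found in 6.86% of genes (6.02% of windows) and in 4 of the 12, at 71 bases before the start in Khk, 98 in Mlxipl, 50 in Fgf21 and 193 in Arrdc4. The E-box and the longer pattern were found in different members. Gpd1, Klf10 and Sik1 had no promoter entry.

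Rgs16 encodes a regulator of G protein signalling that hepatocytes switch on with glucose. Its signal was 3403, 4830.5 and 6966 on the normal diet and 1336, 814, 979 and 1376.5 on the high-fat diet. The lowest normal-diet array was above the highest high-fat array by a wide margin, and the log2 difference was -2.14 ± 0.40 (SE), with a limma adjusted p of 0.219. Txnip encodes thioredoxin-interacting protein, which restrains glucose uptake, and its signal was 2093, 2038 and 3953 on the normal diet and 1368.5, 1019, 969 and 961 on the high-fat diet. Normal-diet array 3 was highest, the groups did not overlap, and the log2 difference was -1.26 ± 0.29 (limma adjusted p = 0.365) or -0.95 without that array. A second probe set of Txnip gave -1.23. Arrdc4, the closest relative of Txnip, had a difference of -0.61 ± 0.24.

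Pklr encodes the liver form of pyruvate kinase, the last enzyme of glycolysis. Its signal was 1570.1, 1634 and 2023 on the normal diet and 828, 761, 738 and 977 on the high-fat diet, without overlap, a log2 difference of -1.08 ± 0.28 (limma adjusted p = 0.478). Its 2 other probe sets gave -0.91 and -1.01. Among fructose enzymes, Tkfc encodes triokinase, which phosphorylates glyceraldehyde, and had signals of 1066, 606 and 881 on the normal diet and 354, 459, 278 and 425 on the high-fat diet. No array of one diet reached the other, and the log2 difference was -1.15 ± 0.26 (limma adjusted p = 0.364). Khk, ketohexokinase, which carries out the first step of fructose breakdown, had signals of 8352, 7168 and 7919.8 on the normal diet and 5804.5, 3976, 5919 and 7371 on the high-fat diet. High-fat array 2 was the lowest and high-fat array 4 lay within the normal-diet range, a log2 difference of -0.47 ± 0.19 or -0.30 without high-fat array 2.

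Klf10, a glucose-responsive transcriptional repressor, had signals of 596, 505 and 2154 on the normal diet and 303, 263, 247 and 241 on the high-fat diet. The groups did not overlap, but normal-diet array 3 was far above the other 2 of its group, and the log2 difference of -1.72 ± 0.47 became -1.06 without it. G6pc, the catalytic subunit of glucose-6-phosphatase, which releases glucose from the liver, had signals of 9695, 6067 and 10154 on the normal diet and 7913, 1342.5, 3387 and 3655 on the high-fat diet. High-fat array 1 lay within the normal-diet range and high-fat array 2 was lowest, with a log2 difference of -1.31 ± 0.43 or -0.87 without high-fat array 2. The fasting hormone Fgf21, which also has a carbohydrate response, had signals of 173, 179.9 and 1443 on the normal diet and 242, 153, 237 and 102 on the high-fat diet, and its log2 difference of -1.04 ± 0.83 was -0.03 without normal-diet array 3. Gpd1, which makes glycerol 3-phosphate for triglyceride, was at -0.76 ± 0.36 with an unadjusted p above 0.05, or -0.41 without high-fat array 2. The factor itself, ChREBP, encoded by Mlxipl, was at -0.28 ± 0.27, the glucose transporter Slc2a2 at -0.18 ± 0.13 and the kinase Sik1 at -0.07 ± 0.51.

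**Figure D2:**
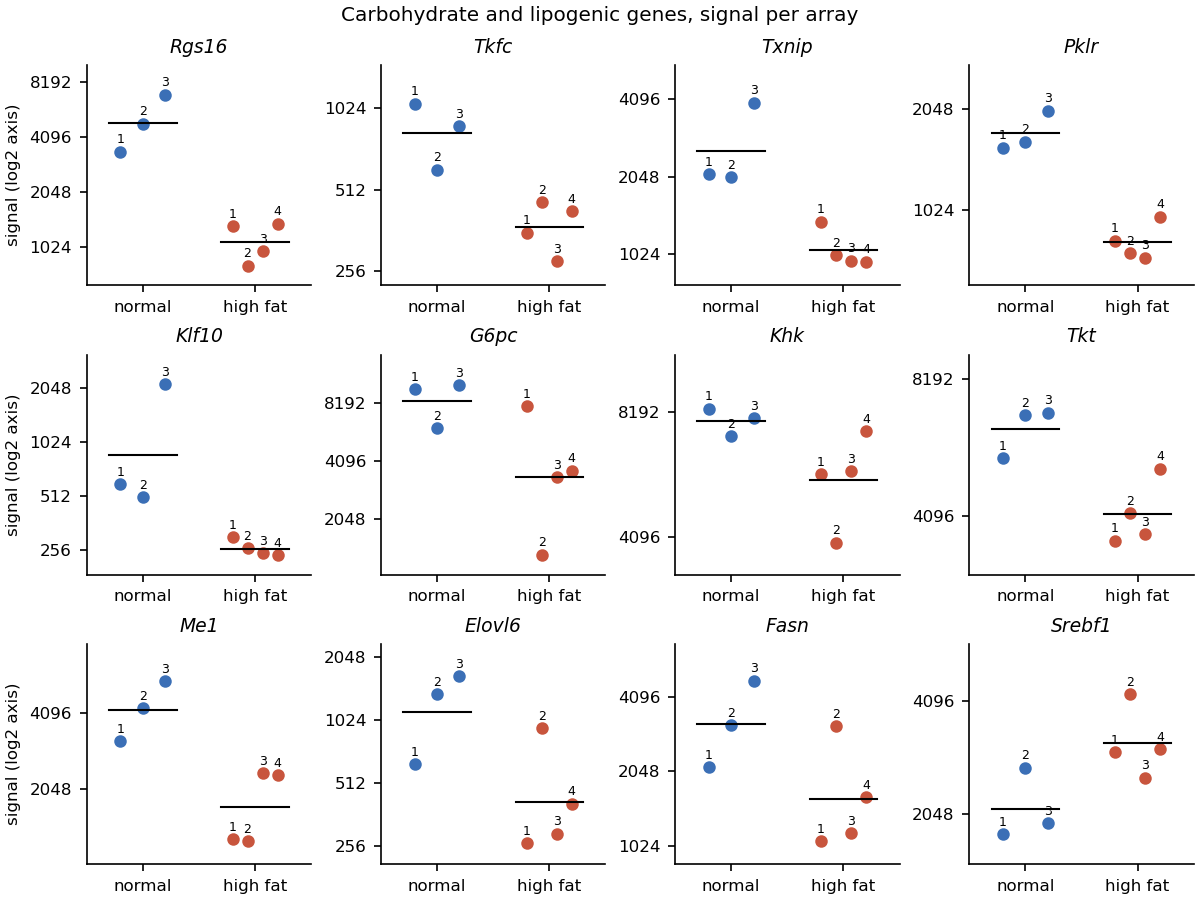
Signal on a log2 axis for 12 genes of carbohydrate response and lipogenesis, 1 point per array with its number, blue for the 3 normal-diet and red for the 4 high-fat arrays; the bar is the mean of log2 signal. Rgs16, Tkfc, Txnip, Pklr, Klf10, Tkt and Me1 show no overlap, while high-fat array 2 lies among the normal-diet arrays for Fasn and Elovl6.

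NADPH, the reducing power for lipid synthesis, comes in the liver from malic enzyme, isocitrate dehydrogenase and the pentose phosphate pathway. Of 11 measured genes of NADPH supply, 7 lay below 0, with a median of -0.05 that was 0.00 without normal-diet array 3. Malic enzyme Me1 had signals of 3179, 4293 and 5512 on the normal diet and 1288, 1269, 2363 and 2323 on the high-fat diet, with a log2 difference of -1.29 ± 0.26 (limma adjusted p = 0.279). The groups did not overlap, and within the high-fat group arrays 1 and 2 were lower than arrays 3 and 4. A second probe set of Me1 gave -1.71 ± 0.44, with overlapping groups. Transketolase Tkt of the pentose phosphate pathway, also a member of the carbohydrate list, had signals of 5484, 6824 and 6914 on the normal diet and 3605, 4143, 3730.5 and 5202.5 on the high-fat diet, without overlap, a difference of -0.63 ± 0.27. Rpia, ribose 5-phosphate isomerase, was at -0.67 ± 0.25 and transaldolase Taldo1 at 0.33 ± 0.14, both with an unadjusted p under 0.05; Rpia was at -0.43 without normal-diet array 3. Isocitrate dehydrogenase Idh1 (0.04) and phosphogluconate dehydrogenase Pgd (0.09) lay near 0.

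The rest of glycolysis and glycogen metabolism differed little. Of 14 measured genes, 13 had a 95% interval inside 2-fold and the median was -0.09. Pklr was the exception. The share inside 2-fold was 84.1% of all genes, or 92.5% with the lowest 60% of probe sets by mean left out. Ugp2, which makes the UDP-glucose for glycogen, was at -0.20 ± 0.11, phosphoglucomutase Pgm1 at 0.14 ± 0.10 and glycogen synthase Gys2 at 0.25. Among 16 genes of gluconeogenesis and transamination, 8 lay on each side of 0 with a median of 0.02. Gpt, alanine aminotransferase, had signals of 4191.5, 3887 and 2227.5 on the normal diet and 5668.5, 5262, 5077 and 5476 on the high-fat diet, without overlap, a difference of 0.70 ± 0.20 (limma adjusted p = 0.591) or 0.41 without normal-diet array 3. Tat, tyrosine aminotransferase, was at 0.55 ± 0.24, with high-fat arrays 3 and 4 below normal-diet array 1, and at 0.86 without that array or 0.29 without normal-diet array 3. The gatekeeper enzyme Pck1 (0.17) and the bisphosphatase Fbp1 (-0.09) lay near 0.

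Fatty acid synthesis genes did not share a direction. Of 16 measured members 9 lay below and 7 above 0, with a median of -0.19. An unadjusted p under 0.05 was found for 1 member with lower (3.09% of all genes) and 2 with higher signal (3.92%). Array levels were -0.06, -0.02 and 0.08 on the normal diet and -0.48, 0.25, -0.47 and -0.11 on the high-fat diet. High-fat array 2 had the highest level of all 7 arrays, and high-fat arrays 1 and 3 the lowest. Elovl6, the elongase that extends palmitate, had signals of 633, 1362 and 1659 on the normal diet and 265, 940.2, 294 and 409.7 on the high-fat diet. The groups overlapped through high-fat array 2, and the log2 difference was -1.44 ± 0.47 or -1.83 without that array. Fatty acid synthase Fasn had signals of 2129.6, 3147 and 4762 on the normal diet and 1073.5, 3118, 1154 and 1616 on the high-fat diet, a difference of -1.01 ± 0.61 with an unadjusted p above 0.05, or -1.33 without high-fat array 2. The largest difference of the list, -2.09 ± 1.01 for the mitochondrial acetyl-CoA carboxylase Acacb, rested on signals of 369, 156 and 102 on the normal diet and 9.20, 160.0, 14.7 and 151 on the high-fat diet, where high-fat arrays 1 and 3 were dim and arrays 2 and 4 lay within the normal-diet range. It was -1.35 without high-fat array 1.

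Other members lay on the opposite side. Fads2, the delta-6 desaturase of polyunsaturated fatty acids, had signals of 3952, 5786 and 4046 on the normal diet and 5593, 10130.5, 5906 and 5406 on the high-fat diet, a difference of 0.53 ± 0.22 or 0.32 without high-fat array 2. Scd2, a stearoyl-CoA desaturase that is minor in adult liver, was at 0.91 ± 0.41. Its signals were 65.9, 59.3 and 80.2 on the normal diet and 232.6, 179.5, 70.1 and 90.5 on the high-fat diet. The groups overlapped, and the normal-diet signals lay near the dim-signal limit. The 2 other probe sets of Scd2, also dim, gave 0.62 ± 0.91 and 0.05 ± 0.63. Scd1, the main stearoyl-CoA desaturase, was at -0.21 ± 0.34. Srebf1, which encodes SREBP1, had signals of 1805, 2721 and 1934 on the normal diet and 2995, 4289, 2559.8 and 3047 on the high-fat diet, a difference of 0.58 ± 0.27 with an unadjusted p above 0.05, where normal-diet array 2 lay within the high-fat range. ATP citrate lyase Acly was at -0.48 ± 0.30, acetyl-CoA carboxylase Acaca at -0.25 ± 0.38 and the lipogenic regulator Thrsp at 0.20 ± 0.64.

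Genes for taking up and storing fatty acids had a small positive median and 1 large value. Of 21 measured members, 15 lay above 0 (51.1% of all genes did) with a median of 0.09. An unadjusted p under 0.05 was found for 3 with higher signal (3.92% of all genes), or 1 without normal-diet array 1. With lower signal it was found for 0 (3.09%). Cd36, the fatty acid translocase, had signals of 165, 904 and 486 on the normal diet and 845, 1397, 1938 and 2647 on the high-fat diet. Normal-diet array 2 lay above high-fat array 1, the other arrays were separated by diet, and the log2 difference was 1.91 ± 0.60 (limma adjusted p = 0.606) and 1.24 without normal-diet array 1 or 2.47 without array 2. Cideb, a droplet protein also needed to load lipoproteins, had signals of 5038, 4752 and 4436 on the normal diet and 6259.9, 5318, 5764 and 5937 on the high-fat diet, without overlap, a difference of 0.29 ± 0.10. Fabp2, a fatty acid binding protein best known from intestine, was at 0.51 ± 0.21 without overlap, or 0.28 without normal-diet array 1, while the abundant liver form Fabp1 was at 0.06 ± 0.12. The droplet coat genes Plin2 (0.01) and Plin5 (-0.50) and lipoprotein lipase Lpl (0.74) had unadjusted p above 0.05.

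Triglyceride assembly and export gave mixed values. The median over 13 measured genes was 0.09. Mttp, the transfer protein that lipidates apolipoprotein B, had signals of 4599.9, 4656 and 5059 on the normal diet and 3535, 2450.5, 3537 and 3431 on the high-fat diet. All high-fat arrays were lower, high-fat array 2 the lowest, and the log2 difference was -0.57 ± 0.15 (limma adjusted p = 0.497) or -0.45 without it. Tm6sf2, also needed for lipoprotein lipidation, was at -0.76 ± 0.30, or -0.45 without normal-diet array 2, and the acyltransferase Gpat4 of the first step of glycerolipid synthesis at 0.48 ± 0.17. Mogat1, a monoacylglycerol acyltransferase, was at 1.36 ± 0.85 and the phosphatidate phosphatase Lpin1 at -1.06 ± 0.58, both with unadjusted p above 0.05. Apob (0.09), Dgat1 (0.14) and Dgat2 (-0.07) lay near 0.

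Mitochondrial fatty acid oxidation genes lay mostly near 0. Of 19 measured genes of oxidation and ketogenesis, 18 had a 95% interval inside 2-fold. The share was 84.1% of all genes, or 92.5% with the lowest 60% of probe sets by mean left out. The median was -0.03, and 0 had an unadjusted p under 0.05 (7.02% of all genes did). Cpt1a, which admits fatty acids to the mitochondrion, was at 0.16 ± 0.15, the short-chain dehydrogenase Acads at 0.23 ± 0.13 and Acat1 at 0.16 ± 0.14. Of 21 measured PPARA targets of peroxisome and microsome, 11 lay above 0 with a median of 0.04, a sign that turned under some alternatives. Pecr, a peroxisomal enoyl-CoA reductase, had signals of 5362, 4733 and 4225 on the normal diet and 6969, 5597, 6042 and 6950.2 on the high-fat diet, without overlap, a difference of 0.42 ± 0.13. Cyp4a31, a fatty acid hydroxylase with near-identical relatives, was dim, at 218, 165 and 144 on the normal diet and 58.7, 34.7, 89.7 and 86.1 on the high-fat diet, a difference of -1.46 ± 0.58. Ppara itself was at 0.20 ± 0.11 and Cyp4a14, one of its most responsive targets, at -0.79 ± 1.21. On the array level high-fat array 2 was the lowest of 7 for this list, at -0.79.

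**Figure D3:**
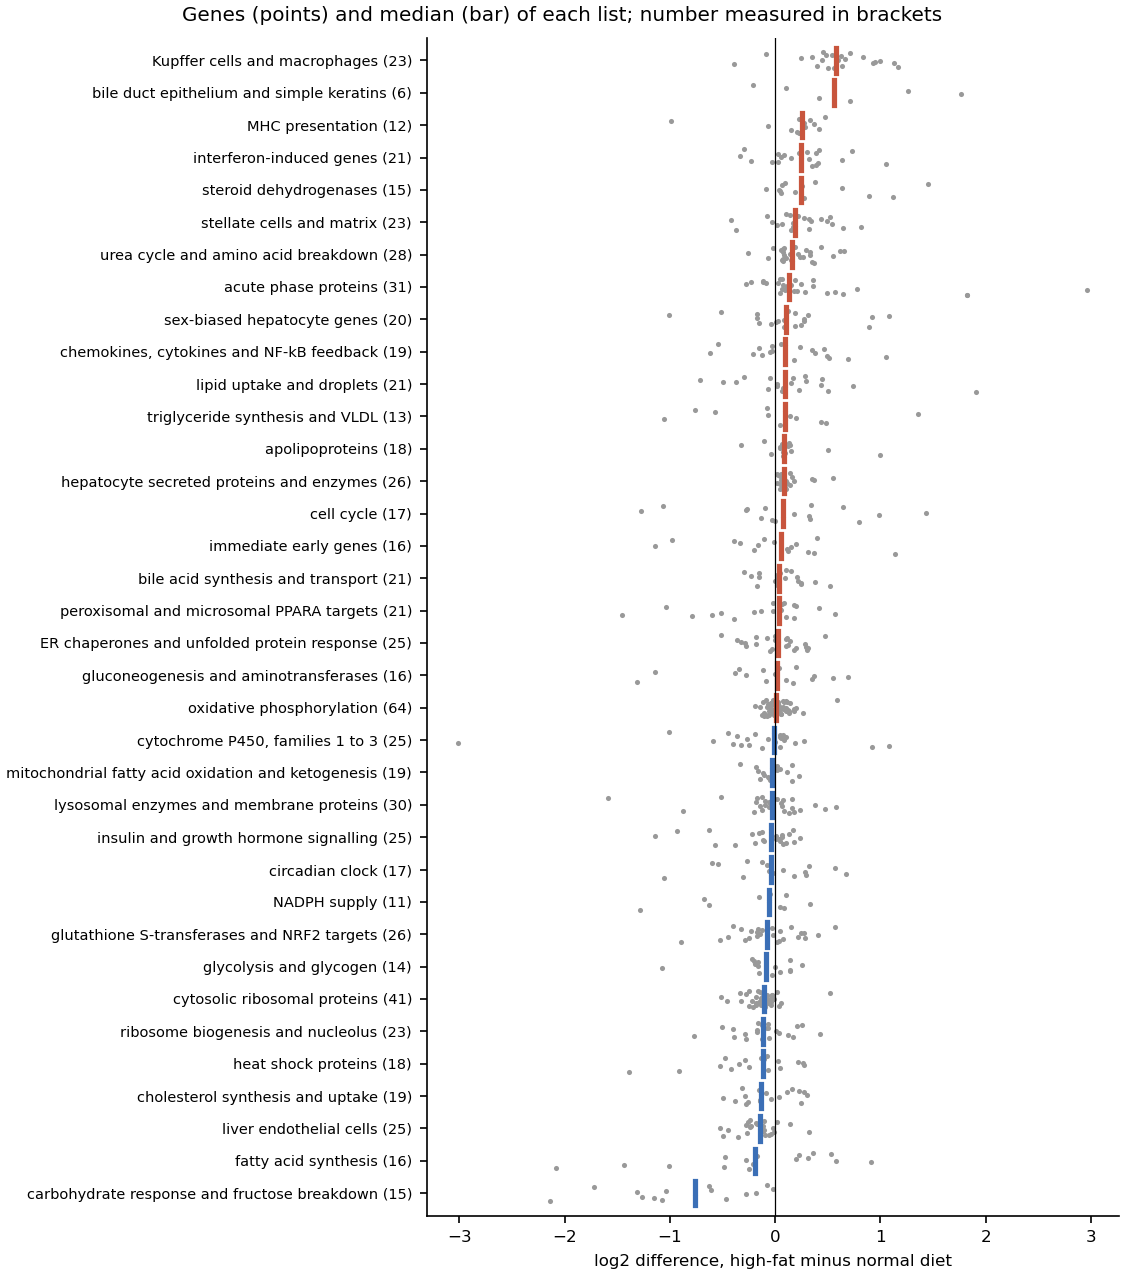
Each row is 1 of 36 gene lists with at least 5 measured genes, ordered by median; grey points are genes, the bar is the list median, and the x axis is the log2 difference, high-fat minus normal diet. The carbohydrate list lies lowest, at -0.76, and the Kupffer cell list highest, at 0.58, while oxidative phosphorylation clusters at 0.01. The medians of 16 lists changed sign under some alternative, oxidative phosphorylation and the keratin list (0.56, and -0.05 with dim probe sets kept) among them.

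Sterol and bile acid genes showed 0 genes with an unadjusted p under 0.05, where 7.02% of all genes had one. That share gives few genes in lists of this size. The median was -0.13 over 19 measured genes of cholesterol synthesis and uptake and 0.04 over 21 of bile acid synthesis and transport, and both signs turned under some alternatives. For cholesterol synthesis the array level was -0.69 on high-fat array 1 and 0.39 on high-fat array 4, a spread within the diet wider than the difference between diets. Ebp, a sterol isomerase, was at 0.16 ± 0.08 without overlap, squalene epoxidase Sqle at -0.50 ± 0.48 and Srebf2 at 0.23 ± 0.18. Cyp7a1, the rate-limiting enzyme of bile acid synthesis, had signals of 8279.8, 8096 and 2583 on the normal diet and 8389, 9968, 6238 and 7804 on the high-fat diet, a difference of 0.52 ± 0.38. The groups overlapped, and without normal-diet array 3, the lowest, the sign turned, to -0.04. The differences of Cyp8b1 (-0.17) and the export pump Abcb11 (-0.23) lay near 0.

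Apolipoprotein genes were bright, with a small positive median. Of 18 measured, 15 lay above 0 (51.1% of all genes did), with a median of 0.08. An interval inside 2-fold was found for 16. The share was 84.1% of all genes, or 92.5% with the lowest 60% of probe sets by mean left out. Apoc2, the activator of lipoprotein lipase, had signals of 6651, 7748 and 6842.5 on the normal diet and 11006, 11045, 8112 and 10202 on the high-fat diet, without overlap, a difference of 0.50 ± 0.12 (limma adjusted p = 0.375). Apoa4, which is carried on triglyceride-rich particles, had signals of 4699, 5364 and 2741 on the normal diet and 6609.5, 5358, 9657 and 13109.9 on the high-fat diet. High-fat arrays 3 and 4 were highest and high-fat array 2 lay just below normal-diet array 2, a difference of 1.00 ± 0.49 with an unadjusted p above 0.05. Apom, a high-density lipoprotein component, was at -0.32 ± 0.15, with normal-diet array 3 at 7174.5 against 4873 and 4394 in the other normal-diet arrays, and -0.11 without array 3.

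Acute phase genes had higher signal in a few inducible members and small positive differences in most others. Of 31 measured members, 26 lay above 0 (51.1% of all genes did), with a median of 0.13. An unadjusted p under 0.05 was found for 5 (3.92% of all genes on this side) and no overlap for 6 (4.58%). Array levels were 0.09, -0.11 and 0.02 on the normal diet and 0.09, 0.42, 0.39 and 0.53 on the high-fat diet. High-fat array 1 was barely above normal-diet array 1, and high-fat arrays 2 to 4 lay clearly above. Without normal-diet array 2, the lowest, the median was 0.07, with 21 above 0 and 3 at an unadjusted p under 0.05. The secreted proteins that are abundant at all times differed little, such as fibrinogen Fgb (0.11), hemopexin Hpx (0.18) and haptoglobin Hp (0.21).

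Lcn2 encodes lipocalin 2, which binds bacterial iron carriers, and its signal was 71.8, 62.0 and 58.7 on the normal diet and 212, 1068, 359.5 and 764 on the high-fat diet. The normal-diet arrays lay just above the dim-signal limit (53.0), all 4 high-fat arrays were higher, and the log2 difference was 2.97 ± 0.62 (limma adjusted p = 0.355) or 2.60 without high-fat array 2. Saa1 encodes serum amyloid A, and its signal was 1288, 861 and 1419.5 on the normal diet and 2552, 8759.7, 3025.5 and 4257 on the high-fat diet, a difference of 1.82 ± 0.40 (limma adjusted p = 0.364) or 1.46 without high-fat array 2. Saa2, whose transcript is nearly identical to that of Saa1 so that probe sets can share signal, had 295, 272 and 265 on the normal diet and 568, 3163, 469 and 1096 on the high-fat diet. Both genes showed no overlap, high-fat array 2 was highest in both, and the difference of Saa2 was 1.82 ± 0.75 or 1.26 without that array. Saa3, made mainly by macrophages and adipose tissue, was at 0.65 ± 0.39 or 0.28 without high-fat array 2, and Saa4, the constitutive member, at 0.50 ± 0.23.

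Smaller differences were tighter. Itih3, a heavy chain of the inter-alpha-trypsin inhibitor, had signals of 8729, 9505 and 10072 on the normal diet and 13095, 12165, 11326 and 11891 on the high-fat diet, without overlap, a difference of 0.36 ± 0.10 (limma adjusted p = 0.497). Stat3, the transducer of the interleukin 6 signal, was at 0.36 ± 0.15. Serum amyloid P, Apcs, was at 0.78 ± 0.39 and the orosomucoid Orm3 at 0.57 ± 0.72, with unadjusted p above 0.05. C-reactive protein Crp (0.09), the iron hormone hepcidin Hamp (-0.09) and the metallothioneins Mt1 (-0.11) and Mt2 (-0.22) lay nearer 0. Markers of neutrophils, which also express Lcn2, gave 4 tested genes of 17, with summed signals, Lcn2 left out, of 381 to 463 on the normal diet and 450.4 to 574 on the high-fat diet, and S100a8, Mpo, Ltf, Camp and Mmp9 were under the dim-signal limit on all 7 arrays. Their part in the Lcn2 value was not tested.

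Chemokine and cytokine genes had a median of 0.09 over 19 measured members, 11 above 0. Cxcl1, a neutrophil attractant that hepatocytes make in the acute phase, had signals of 398, 515 and 760.5 on the normal diet and 688, 1620.5, 696 and 1985 on the high-fat diet. High-fat arrays 2 and 4 were above all others and high-fat arrays 1 and 3 lay within the normal-diet range, with a log2 difference of 1.05 ± 0.36. Ccl6 was at 0.69 ± 0.31, and on the lower side the B cell attractant Cxcl13 was at -0.62 ± 0.27 and the NF-kB target Birc3 at -0.54 ± 0.22. The NF-kB feedback gene Nfkbia (-0.03) and the adhesion molecule Icam1 (-0.15) lay near 0.

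Interferon-induced genes varied more within a diet than between diets. The median was 0.25 over 21 measured genes, 17 of them above 0, but 0.04 with 11 above 0 without high-fat array 2. Array levels were -0.33, 0.51 and -0.19 on the normal diet and -0.15, 1.01, 0.44 and -0.36 on the high-fat diet. High-fat array 2 was highest, normal-diet array 2 next, and the groups overlapped. The antiviral synthetase Oas1a, with signals of 89.3, 109.8 and 80.1 on the normal diet and 131, 570.4, 192 and 94.2 on the high-fat diet, had a difference of 1.06 ± 0.47 or 0.53 without high-fat array 2. Psmb9, an immunoproteasome subunit, was at 0.73 ± 0.24, or 0.45 without normal-diet array 3. Of 12 measured MHC genes 10 lay above 0 (51.1% of all genes did) with a median of 0.25. Array levels were -0.0003, 0.12 and -0.12 on the normal diet and 0.02, 0.51, -0.01 and 0.12 on the high-fat diet. Only high-fat array 2 lay above the normal-diet range. The class I gene H2-D1 was at 0.21 ± 0.11 and the peptide transporter Tap1 at 0.41 ± 0.21, while the class II gene H2-Eb1 was at -0.99 ± 0.56 on dim signals. Other probe sets of H2-D1 had both signs, from -2.45 ± 1.45 to 2.04 ± 0.97, the latter under the dim-signal limit. All of them had unadjusted p above 0.05. Those of Tap1 were dim and also of both signs.

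Kupffer cell and macrophage markers had the highest median of the lists. Of 23 measured markers, 21 lay above 0 (51.1% of all genes did), the median was 0.58, and 5 had an unadjusted p under 0.05 (3.92% of all genes on this side). Array levels were 0.24, -0.27 and 0.03 on the normal diet and 0.58, 1.25, 0.02 and 0.47 on the high-fat diet, and summed signals were 5871 to 9022 on the normal diet and 7370.5 to 20828 on the high-fat diet. High-fat array 2 was far above the rest, high-fat array 3 lay within the normal-diet range, and normal-diet array 2 was lowest. The median was 0.34 with 3 genes at an unadjusted p under 0.05 without high-fat array 2, 0.38 with 1 without normal-diet array 2, and 0.78 with 12 without high-fat array 3. Their part in the acute phase and interferon values was not tested.

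Cd5l, a protein secreted by macrophages, had signals of 801, 355.5 and 539 on the normal diet and 1299, 2159, 604 and 1225 on the high-fat diet, a difference of 1.16 ± 0.46. Aif1 was at 1.13 ± 0.37 and the folate receptor Folr2 at 0.93 ± 0.34, both dim and without overlap. Clec4f, a lectin that marks Kupffer cells, had signals of 942, 371 and 581 on the normal diet and 899.7, 1173, 644 and 711 on the high-fat diet, with overlapping groups and a difference of 0.50 ± 0.38, 0.84 without normal-diet array 1 and 0.17 without array 2. Lysozyme Lyz2 had 364, 266 and 289 on the normal diet and 510.1, 1987, 276 and 419.8 on the high-fat diet, where high-fat array 2 was several times above every other array. The complement genes C1qa (0.44), C1qb (0.60) and C1qc (0.67) and the receptor Csf1r (0.40) lay above 0 with unadjusted p above 0.05, and Cd163 (-0.39) and Laptm5 (-0.08) below.

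**Figure D4:**
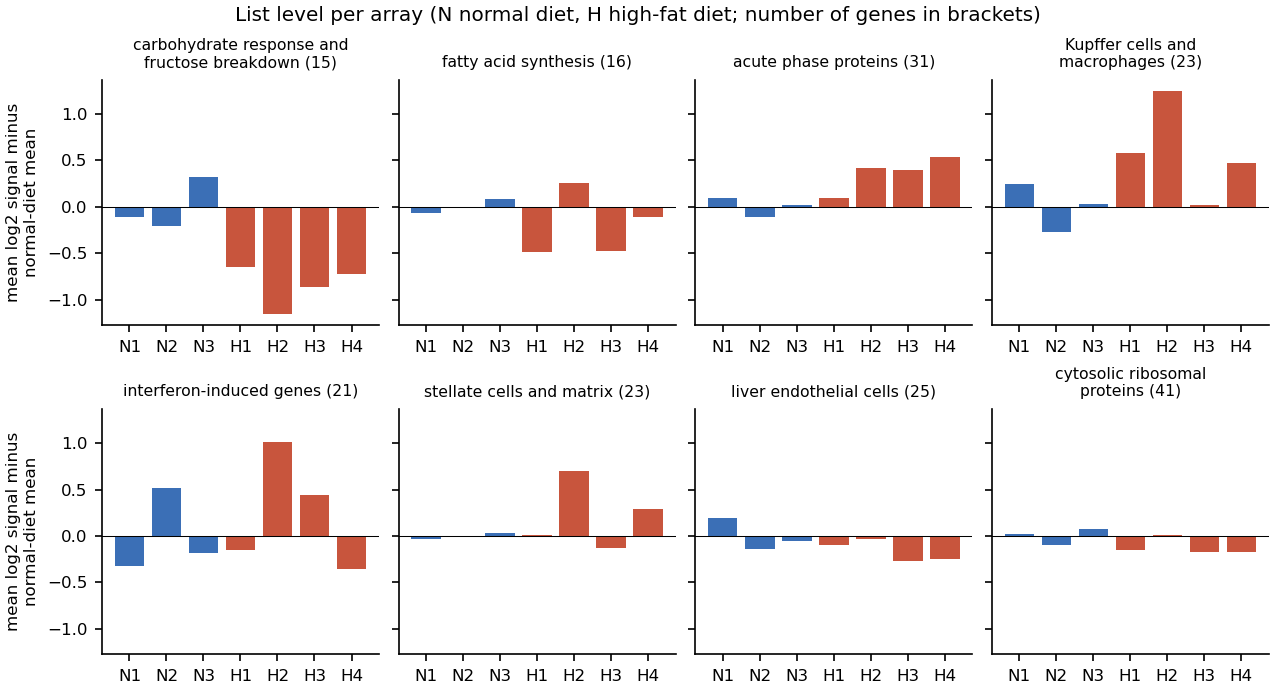
Bars give, for 8 gene lists, the mean log2 signal of each array minus the normal-diet mean, for the 3 normal-diet arrays (blue, N1 to N3) and the 4 high-fat arrays (red, H1 to H4); a bar is 1 array and carries no error. Every high-fat array is below every normal-diet array for the carbohydrate list, whereas the macrophage, interferon and stellate levels are highest on high-fat array 2 (1.25, 1.01 and 0.70).

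Stellate cell and matrix genes gave a median of 0.18 over 23 measured members, 19 above 0, and 0.08 without high-fat array 2. The collagen gene Col1a2 had signals of 178, 164 and 209 on the normal diet and 252, 471, 213 and 267 on the high-fat diet. The groups did not overlap, high-fat array 2 was highest, and the difference was 0.65 ± 0.24 or 0.41 without it. Decorin Dcn was at 0.32 ± 0.14 and biglycan Bgn at 0.52 ± 0.25, or 0.21 and 0.28 without high-fat array 2. Timp1, which marks activated stellate cells, and Lox were under the dim-signal limit on all 7 arrays, and Acta2 was at -0.03.

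Endothelial markers lay on the other side of 0. Of 25 measured, 22 lay below 0 (48.9% of all genes did) with a median of -0.15, and 23 had an interval inside 2-fold (84.1% of all genes). Array levels were 0.19, -0.13 and -0.06 on the normal diet and -0.09, -0.03, -0.27 and -0.24 on the high-fat diet, with overlapping groups. Under the alternatives the median of the list ran from -0.21 to -0.06. Ehd3, an endocytic protein, had signals of 719.9, 833 and 808 on the normal diet and 643, 583, 504 and 471 on the high-fat diet, without overlap, a difference of -0.52 ± 0.14 (limma adjusted p = 0.497). A second probe set of Ehd3 gave -0.22 ± 0.13, with overlapping groups. The scavenger receptors Stab1 (-0.35 ± 0.15) and Stab2 (-0.50 ± 0.28) of sinusoidal endothelium and the growth factor Bmp2 (-0.27 ± 0.13) were lower in the mean as well.

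Keratins and epithelial markers included the gene of smallest p. Krt8 and Krt18 form the keratin filaments of hepatocytes. Krt8 had signals of 1829.9, 1895 and 1754 on the normal diet and 3055, 2936, 2778.5 and 3168 on the high-fat diet, a 1.63-fold difference. Every high-fat array was at least 2778.5 and every normal-diet array at most 1895, and the log2 difference was 0.71 ± 0.10 (limma adjusted p = 0.0705). The probe set is of a type that may bind related transcripts, and 2 other probe sets of Krt8 gave 0.71 each. Its partner Krt18 had signals of 2650.5, 2321 and 2860.2 on the normal diet and 3049, 3675, 3400.5 and 3781 on the high-fat diet, without overlap, a difference of 0.41 ± 0.15. Krt23, a keratin known from injured liver, was dim, at 57.6, 24.4 and 62.3 on the normal diet and 161, 192, 206 and 82.6 on the high-fat diet, a difference of 1.77 ± 0.52. E-cadherin Cdh1, at 185, 75.3 and 134 on the normal diet and 294, 546, 248 and 189 on the high-fat diet, had a difference of 1.26 ± 0.44 and 0.91 without normal-diet array 2. These are 4 of the 6 measured members of the bile duct list, whose median was 0.56, but -0.05 over 16 members when dim probe sets were kept. The defining bile duct genes Krt7, Epcam, Cftr and Prom1 were under the dim-signal limit on all 7 arrays.

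Markers of other cell types were few. For T, B and NK cells 2 of 24 markers were tested, and Cd3d, Cd4, Cd79a and Nkg7 were under the limit on all 7 arrays. Summed erythroid signals were 689 to 2003 on the normal diet and 814 to 1009.7 on the high-fat diet, and those of adipocyte markers, which rest on genes the liver also expresses, 21745.5 to 27512 on the normal diet and 25611 to 29163 on the high-fat diet. Adipoq and Lep were under the limit on all 7 arrays, as were the muscle genes Mb and Myh4 and the pancreatic genes Cpa1 and Clps. Summed skeletal muscle markers were 391 to 485.5 on the normal diet and 527 to 674 on the high-fat diet and pancreatic markers 1712 to 2164 on the normal diet and 1482 to 2785 on the high-fat diet.

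Enzymes of nitrogen and amino acid disposal had small differences, most of them above 0. Of 28 measured genes of the urea cycle and amino acid breakdown, 25 lay above 0 (51.1% of all genes did) with a median of 0.16. An unadjusted p under 0.05 was found for 8 on the higher (3.92% of all genes) and 0 on the lower side (3.09%). An interval inside 2-fold was found for 26 (84.1% of all genes). Array levels were 0.20, -0.08 and -0.12 on the normal diet and 0.25, 0.19, 0.15 and 0.22 on the high-fat diet. Normal-diet array 1 lay within the high-fat range, and the number at an unadjusted p under 0.05 was 3 without normal-diet array 2, 2 without normal-diet array 3 and 5 without high-fat array 2. Aass, of lysine breakdown, had signals of 4633, 3339 and 2923.5 on the normal diet and 6458, 5487, 4607 and 5465 on the high-fat diet, a difference of 0.62 ± 0.16 (limma adjusted p = 0.478). Bckdha, of the branched-chain ketoacid dehydrogenase, was at 0.33 ± 0.10, Fah, of tyrosine breakdown, at 0.24 ± 0.09, and proline dehydrogenase Prodh at 0.65 ± 0.28, the last at 1.03 without normal-diet array 1 and 0.24 without array 3. Among urea cycle enzymes Cps1 was at 0.37 ± 0.15, or 0.21 without normal-diet array 2, and Otc, without overlap, at 0.35 ± 0.14. Ivd, the isovaleryl-CoA dehydrogenase of leucine breakdown, which stands on none of the lists, had signals of 1495, 1405.5 and 1253 on the normal diet and 2005, 2299.9, 1907 and 1778 on the high-fat diet, without overlap, a difference of 0.53 ± 0.12 (limma adjusted p = 0.364). A second probe set of Ivd gave 0.24 ± 0.20, with overlapping groups. All 26 hepatocyte markers, several of them members of this list, lay above 0 as well, with a median of 0.08 that was 0.01 with 15 above 0 without normal-diet array 2.

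Steroid dehydrogenases gave 14 of 15 measured members above 0 and a median of 0.25. Hsd3b3, a 3-beta-hydroxysteroid dehydrogenase, had signals of 2317, 3718 and 2031 on the normal diet and 5181, 6649, 5639 and 5246 on the high-fat diet. The groups did not overlap, and the log2 difference was 1.12 ± 0.20 (limma adjusted p = 0.219), or 1.38 (limma adjusted p = 0.0186) without normal-diet array 2, the highest of its group. Its probe set may bind close relatives, of which Hsd3b2 was at 0.27 ± 0.33 and the male-specific Hsd3b5 at 0.89 ± 0.89. Hsd17b13, a droplet protein, was at 1.45 ± 1.45 and the mitochondrial Hsd17b10 at 0.64 ± 0.30, both with unadjusted p above 0.05. Of 20 measured sex-biased genes 14 lay above 0 (51.1% of all genes did). An unadjusted p under 0.05 was found for 0 of them (7.02% of all genes). The list included Cyp4a12a at 0.18 ± 0.25 and Cyp2d9 at 0.08 ± 0.25.

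Cytochromes P450 of families 1 to 3 had a median of -0.01 over 25 measured genes and wide spreads within the diet. Array levels were -0.83 on high-fat array 2 and 0.44 on high-fat array 3, with the normal-diet arrays between. Cyp2c39, a member of a cluster of near-identical genes, had signals of 847, 1995.5 and 983.5 on the normal diet and 79.5, 21.4, 1448 and 189 on the high-fat diet. High-fat array 3 lay within the normal-diet range and the other 3 far below, a difference of -3.01 ± 1.20 (limma adjusted p = 0.674). The bright Cyp2e1 (0.05 ± 0.14), Cyp3a11 (-0.19 ± 0.16) and Cyp2c29 (-0.32 ± 0.19) differed less. Among 26 measured glutathione S-transferases and NRF2 targets the median was -0.08. Gstm1 had signals of 11129.8, 11074 and 13427 on the normal diet and 9356, 9139, 10515.5 and 9953 on the high-fat diet, without overlap, a difference of -0.28 ± 0.10. The 3 other probe sets of Gstm1 gave -0.36 ± 0.11, -0.51 ± 0.23 and -0.87 ± 0.13, also without overlap. Gstk1 was at 0.28 ± 0.12, or 0.17 without normal-diet array 1, and Gstz1, of tyrosine breakdown, at 0.25 ± 0.11.

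Gstp3, a pi-class glutathione S-transferase, had the largest positive difference of all genes tested, and it rested on 2 arrays. Its signal was 432, 11554 and 641 on the normal diet and 13571, 13369, 14757 and 16621 on the high-fat diet. Normal-diet arrays 1 and 3 were low, and normal-diet array 2 lay near the high-fat arrays. The log2 difference was 3.30 ± 0.82 (limma adjusted p = 0.385), and 4.79 (limma adjusted p = 2.34e-07) without normal-diet array 2. The related Gstp1, near-identical in sequence to others of its class, was at -0.17 ± 0.25.

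**Figure D5:**
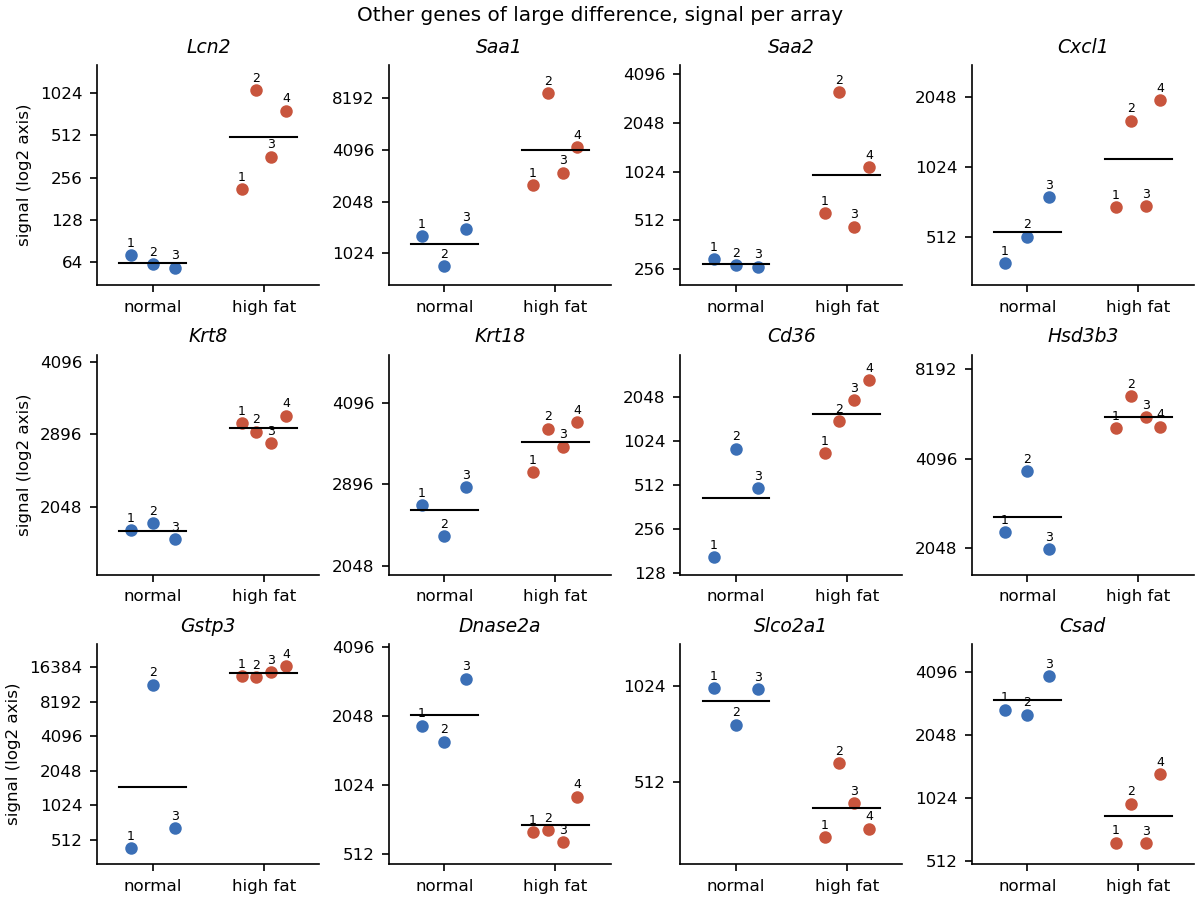
Signal on a log2 axis for 12 other genes of large difference, 1 point per array with its number, blue for the 3 normal-diet and red for the 4 high-fat arrays; the bar is the mean of log2 signal. Krt8 shows narrow groups (at most 1895 against at least 2778.5), high-fat array 2 is the highest point for Lcn2, Saa1 and Saa2, and normal-diet array 2 lies near the high-fat arrays for Gstp3.

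Cytosolic ribosomal proteins had slightly lower signal. Of 41 measured members, 37 lay below 0 (48.9% of all genes did) with a median of -0.11, and 39 had an interval inside 2-fold (84.1%). On the lower side 4 had an unadjusted p under 0.05 (3.09% of all genes), and 4 showed no overlap (3.33%), with Rpl27a, Rps19 and Rps24 in both counts. Array levels were 0.02, -0.10 and 0.07 on the normal diet and -0.15, 0.02, -0.18 and -0.17 on the high-fat diet. High-fat array 2 lay within the normal-diet range and high-fat arrays 1, 3 and 4 below it. Without high-fat array 2 the median was -0.15, with 11 at an unadjusted p under 0.05. Rpl27a had signals of 355, 370.4 and 402 on the normal diet and 289, 256, 292 and 257 on the high-fat diet, a difference of -0.46 ± 0.11 (limma adjusted p = 0.385), Rps24 was at -0.33 ± 0.10 and Rps19 at -0.28 ± 0.10. Of 5 other probe sets of Rps24, 3 had the same sign and 2 the opposite one, at 2.20 on mean signals of 5.93 and 24.3, under the dim-signal limit, and at 0.10. Ribosomal protein genes have many processed pseudogenes of near-identical sequence, which their probe sets may also detect.

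Of 23 measured nucleolar genes, 16 lay below 0 with a median of -0.11. Ddx21, a helicase of ribosomal RNA processing, had signals of 196, 231 and 214 on the normal diet and 116, 131, 144 and 110.1 on the high-fat diet, without overlap, a difference of -0.77 ± 0.17 (limma adjusted p = 0.361). A second probe set of Ddx21 gave a smaller difference, -0.42 ± 0.23, also without overlap. Utp20 was at -0.50 ± 0.18 (-0.33 without normal-diet array 1), nucleostemin Gnl3 at -0.40 ± 0.15 and nucleophosmin Npm1 at -0.28 ± 0.10.

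Oxidative phosphorylation genes differed little, apart from Coq7. All 64 measured genes had an interval inside 2-fold (84.1% of all genes did), and the median was 0.01. Coq7, which hydroxylates the ubiquinone precursor, had signals of 968, 746.5 and 749 on the normal diet and 1229.7, 1370.3, 1158.5 and 1154 on the high-fat diet, without overlap, a difference of 0.59 ± 0.13 (limma adjusted p = 0.361). Ndufa10 of complex I was at 0.27 ± 0.08 and Sdhb of complex II at 0.18 ± 0.08. Mterf2, a regulator of mitochondrial transcription on none of the lists, was dim, at 63.0, 69.4 and 47.4 on the normal diet and 119.8, 156.5, 132 and 136 on the high-fat diet, without overlap, a difference of 1.19 ± 0.23 (limma adjusted p = 0.271).

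Stress and signalling lists had medians near 0. For 25 chaperones of the endoplasmic reticulum it was 0.03, with Calr at 0.31 ± 0.12, Pdia3 at 0.31 ± 0.12 and the ligase Syvn1 at -0.36 ± 0.14, and the main chaperone Hspa5 at -0.05 ± 0.14. Without normal-diet array 2, Calr was at 0.16 and Pdia3 at 0.17. For 18 heat shock genes it was -0.12; Hspa1b had signals of 3143, 2204 and 6843.5 on the normal diet and 2975, 3420.3, 1318.5 and 1026 on the high-fat diet, a difference of -0.91 ± 0.44 that was -0.45 without normal-diet array 3, and the mitochondrial Hspd1 was at 0.27 ± 0.12. Immediate early genes had a median of 0.05 over 16, with Fos at 1.14 ± 0.82 and Ier3 at -1.14 ± 0.55. Of the 16, 2 were bounded inside 2-fold (84.1% of all genes were). Ier3 was at -0.48 without normal-diet array 2, and Fos at 0.54 without normal-diet array 1 or 1.76 without array 3. Array levels of that list reached 0.50 on normal-diet array 3 and 0.35 on high-fat array 4.

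Clock genes had a median of -0.04 over 17. Bhlhe40, a clock repressor also responsive to feeding, had signals of 1915, 2198 and 3419 on the normal diet and 1888, 1690.4, 1482 and 1405 on the high-fat diet, a difference of -0.60 ± 0.22 or -0.35 without normal-diet array 3. Dbp, one of the most rhythmic liver genes, had 2349, 5093 and 2568.5 on the normal diet and 3052, 6196, 4918 and 4956 on the high-fat diet, with overlapping groups and a difference of 0.56 ± 0.27, 0.36 without normal-diet array 1 and 0.92 without array 2. Arntl was at -1.06 ± 0.71. Insulin and growth hormone signalling had a median of -0.04 over 25 measured genes, 20 of them bounded inside 2-fold (84.1% of all genes were). Irs1, an insulin receptor substrate, was at -0.57 ± 0.22 (-0.34 without normal-diet array 3), the growth hormone receptor Ghr, without overlap, at 0.23 ± 0.10, and the feedback gene Socs2 at -0.93 ± 0.44. The insulin-repressed Igfbp1 was at -1.14 ± 0.68 and Igf1 at 0.06 ± 0.09.

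Of 17 measured cell cycle genes 9 lay above 0, with a median of 0.08. Rrm1, a subunit of ribonucleotide reductase, had signals of 95.9, 112 and 94.2 on the normal diet and 167, 170.4, 143 and 150.1 on the high-fat diet, without overlap, a difference of 0.65 ± 0.15 (limma adjusted p = 0.375). The replication genes Mcm5 (1.43 ± 0.50) and Mcm3 (0.99 ± 0.38) rested on signals near the dim-signal limit, Mcm5 being at 0.94 without normal-diet array 1, and Mcm6 (-1.27 ± 0.96) and Rrm2 (-1.06 ± 0.53) lay on the other side of 0.

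Lysosomal genes had a median of -0.03 over 30 measured members with 1 large value. Dnase2a, the acid deoxyribonuclease of lysosomes, had signals of 1859, 1582 and 2984 on the normal diet and 637, 652, 578 and 912 on the high-fat diet. Every high-fat array was below every normal-diet array, and the log2 difference was -1.59 ± 0.29 (limma adjusted p = 0.219). Gm2a, the activator protein for ganglioside breakdown, which was not on the list, had 2192, 1854 and 2313 on the normal diet and 1189, 1304, 1349 and 1488 on the high-fat diet, without overlap, a difference of -0.67 ± 0.15. Hexa, the enzyme it serves, was at 0.38 ± 0.18 and cathepsin B, Ctsb, at 0.18 ± 0.09.

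Further genes of small p belonged to none of these groups. Slco2a1, a prostaglandin transporter, had signals of 1006, 774 and 999 on the normal diet and 344.5, 588, 441 and 366.5 on the high-fat diet, a difference of -1.11 ± 0.20 (limma adjusted p = 0.219). Csad, which makes the taurine precursor hypotaurine from cysteine sulfinate, had 2709, 2566 and 3915 on the normal diet and 625.5, 962, 622 and 1335 on the high-fat diet, a difference of -1.84 ± 0.45. Both showed no overlap, and the same held for Enpep, glutamyl aminopeptidase (-0.68 ± 0.16), biotinidase Btd (-0.57 ± 0.13) and Ehbp1 (-0.79 ± 0.16). Inhba, the activin A subunit, had 140.2, 237.5 and 484 on the normal diet and 69.7, 97.6, 64.4 and 22.3 on the high-fat diet, a difference of -2.18 ± 0.69, without overlap. Maff (-1.85 ± 0.65) and Ccl27a (-2.42 ± 1.09) had high-fat signals mostly around or under the dim-signal limit, and Ccl27a was at -1.46 without high-fat array 3.

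On the higher side, Tmem184c had signals of 402, 584 and 428 on the normal diet and 948, 726, 883 and 835 on the high-fat diet, a difference of 0.86 ± 0.16 (limma adjusted p = 0.219). Uvrag, which acts in autophagy and endosome traffic, had 655, 414 and 476 on the normal diet and 788, 807, 704 and 770.2 on the high-fat diet, a difference of 0.60 ± 0.14. Stard3nl, a protein of endosome contact sites, was at 0.69 ± 0.15, Smim8 at 0.69 ± 0.15 and Ttc30b, of ciliary transport, at 0.67 ± 0.15. In all 5 of these genes every high-fat array lay above every normal-diet array. None of them passed, with limma adjusted p from 0.219 to 0.365.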

How the data were processed

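Liver RNA of 11 mice was labelled with biotin and hybridised to 1-colour oligonucleotide arrays. The deposited intensity values (signal per probe set) were made by the authors with MAS5, per the submitters' processing notes, which scales each array as a whole; no detection calls were used here. Of 22690 probe sets, 20380 had 1 gene symbol in the platform annotation; 64 controls, 691 with several symbols and 1555 with none were left out. RefSeq genes (GRCm38.p6) held the symbols of 20351. Signals under 1 were set to 1 (1386 values) and log2 was taken. Probe sets in the lowest 40% by mean over all 11 arrays (a signal under 53.0) were dropped. The probe set of highest mean over these arrays stood for a gene, which left 7924 genes.

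Limma 3.58.1 in R 4.3.3 (lmFit, eBayes with trend) fitted all 11 arrays with a mean per group, two-sided, with Benjamini-Hochberg adjustment over all genes. Errors are moderated standard errors of log2 differences. In simulated data of 7924 genes for this comparison, 0 were called without changes, and 71% of 2-fold and 93% of 4-fold changes were recovered, with 4 false calls. The simulated noise was normal and independent, with the spread estimated for each gene. Arrays that stood apart in many genes at once were not part of it, so these shares may not hold for the real arrays. Replicate numbers did not pair arrays (correlations 0.029, -0.0075 and -0.072).

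Members and lists were chosen with earlier results of these data known. The rule named the 12 smallest p and 6 largest differences per direction, the 3 smallest p of each list with at least 5 measured genes, and partners of named genes (128 genes); other list members were chosen as examples after their values were seen. Of 86 other probe sets of 49 named genes, 76 had the same sign. Overlap was judged on the probe set that stood for the gene. Groups overlapped on another probe set of Ivd, Ehd3, Me1, Pecr, Otc and Ghr, among others. Alternatives covered normalization, floor, filter, probe sets, variance model, weights, arrays in the fit, replicate block and each array left out. The number of arrays limits the precision.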

Additional observations from a re-analysis of the deposited data

Results flagged for a closer look

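Of 128 named genes, 8 (6.25%, where chance gives about 5%) had 1 of the 4 high-fat arrays whose gap to the next, divided by the range of the group, exceeded the 95% critical value of Dixon. High-fat array 2 was that array in 5 of them. It was the highest for Fads2 (10130.5 against 5406 to 5906, a gap of 0.859 of the range) and Saa3 (784 against 279 to 296, 0.941). It was the lowest for Mttp (2450.5 against 3431 to 3537, 0.917), Fabp2 (4234 against 4855 to 4991, 0.832) and Cyp2c29 (9840.4 against 15603.5 to 16567.5, 0.885). High-fat array 1 was highest for Txnip (1368.5 against 961 to 1019, 0.835) and Hsd3b2 (1411 against 809 to 846.5, 0.919). High-fat array 3 was highest for Adh1, alcohol dehydrogenase (21431 against 18929 to 19181, 0.893). In Txnip the outlying array was nearest to the normal-diet group, and in Mttp it was farthest from it.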

How the results depend on the processing

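The number of genes past an adjusted p of 0.05 was 0 under 8 of the alternatives that kept all 11 arrays or 7, 1 with array weights (Krt8, limma adjusted p = 0.0441) and 0 to 2 when each wild-type array was left out, with 2 (Gstp3 and Hsd3b3) without normal-diet array 2. With the replicate number as a block it was 2 (Hsd3b3, limma adjusted p = 0.0348, and Dnase2a, 0.0369). The numbers share no label of litter or day and no array matched its own number best, so they are no pairing. The number at an unadjusted p under 0.05 was 870 of 12526 (6.95%) with each probe set tested by itself and 379 to 626 with each array left out. Genes without overlap numbered 988 of 12526 probe sets (7.89%) and 893 to 1514 with each array left out, where fewer arrays make overlap less likely. Of 12526 probe sets, 10470 (83.6%) were bounded inside 2-fold, and of 12393 genes with dim probe sets kept 6636 (53.5%, against 84.1%). Of 2154 values of named genes under the alternatives, 1 had the opposite sign, for a gene whose unadjusted p was above 0.05. Of 36 list medians, 20 kept their sign under every alternative run and 16 did not, all but the keratin list (0.56, and -0.05 with no filter on dim probe sets) lying between -0.13 and 0.10. Signals near 53.0 lie close to background, which limits Lcn2, Krt23, Mterf2, Mcm5 and Scd2.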

Other observations

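Among tested genes with a high signal on at least 1 array, 7 had a gap of at least 8-fold between neighbouring signals. The 11 arrays, the transgenic ones included, were put in order for this. Genes without such a high signal were not searched, and the 7 were chosen after their values were seen. Gstp3 had the widest, 18.0-fold, with normal-diet arrays 1 and 3 at 432 and 641 and the other 9 arrays, of both genotypes and both diets, at 11554 or above, the transgenic arrays at 12038 to 16960.2. Fitm1, a protein of lipid droplet formation, was at 27.3 on high-fat array 2 and at 305.5 or above on the other 10. Scara5, a ferritin receptor, was at 6.20 on normal-diet array 2 and at 60.1 or above on the other 10. Gdpd3 split the arrays within both diets, with normal-diet array 3 and high-fat arrays 1, 2 and 4 at 57.8 or below and the other 7 at 506 or above. Hsd3b5 was at 151 on transgenic array 3, Asic5 at 12.3 on transgenic array 4 and Col5a2 at 1926 on transgenic array 2, each apart from the other 10. The number of such genes was not tested.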
